A study of Homo sapiens with 9 samples.

Results

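The genes described here encode the protease-activated receptors and the proteins that start or restrain the proteases around them at the cell surface: the receptor genes F2R, F2RL1, F2RL2 and F2RL3, the tissue factor gene F3, the inhibitors TFPI and TFPI2, urokinase (PLAU) and its receptor (PLAUR). Members were all probe sets that the array's annotation assigns to exactly 1 of these 9 genes. That gave 18 of the 41091 single-gene probe sets and 8 of the 19775 genes. No probe set was assigned to F2RL1 in the table used, and that gene was not analysed here. The cells were A549, a long-established line from a human lung adenocarcinoma, known for a KEAP1 defect that keeps NRF2 active. With Lipofectamine 2000 they were given 25 nM of an siRNA against Nrf2 (gene symbol NFE2L2) or 25 nM of a non-targeting siRNA (NS siRNA), and mock cells got transfection reagent alone. RNA was taken 96 h later from 3 biological replicates per group, each read on its own array. The labels name no other treatment, 1 cell line and 1 siRNA against Nrf2, so an effect of NFE2L2 loss and an off-target effect of that siRNA cannot be told apart. The series was made to find genes regulated by NRF2 in this line.

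Protease-activated receptors are G protein-coupled receptors that a protease switches on by cutting their outer end, which frees a new end that then binds the receptor itself. F2R encodes PAR1, the main thrombin receptor of many cell types, F2RL1 encodes PAR2, a receptor for trypsin-like proteases, F2RL2 encodes PAR3, which can act as a cofactor for other family members, and F2RL3 encodes PAR4. Tissue factor starts the clotting cascade that makes thrombin, and tissue factor pathway inhibitor holds that first step back. Urokinase, bound to its membrane-anchored receptor, turns plasminogen into plasmin, and lung cancer cells use this system during invasion.

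All levels below are log2 values on the RMA scale that the submitters deposited. A difference of 1 is a 2-fold difference. Levels of different probe sets cannot be set against each other. The genes were chosen by pathway with the log2 differences between the 3 groups already known. Their differences are therefore descriptions, each with limma's SE, and no p-value is printed for them. A probe set is called higher or lower where the limma fit over all 41091 probe sets gave a Benjamini-Hochberg adjusted p below 0.05. For the members a call only labels the outcome of that fit and is not a test, because they were picked with these differences known. With bulk RNA, fewer cells holding a transcript and less of it per cell cannot be told apart. On its brightest probe set NFE2L2 stood at 12.07, 11.92 and 11.98 in the mock arrays. It stood at 12.09, 12.03 and 12.15 in NS siRNA, and 10.12, 10.32 and 10.30 in Nrf2 siRNA. That left 27.9% of the NS siRNA level (limma adjusted p = 3.09e-10). On a dimmer NFE2L2 probe set 45.2% was left (-1.15 ± 0.07 against NS siRNA, called lower). On the dimmest, 92.9% was left (-0.11 ± 0.06, not called). The size of the NFE2L2 fall thus depends on the probe set. The array medians lay between 7.51 and 7.57. Of the 7 epithelial markers checked, all were measured, and the mean level of the list ran from 11.27 to 11.35 in mock, 11.60 to 11.62 in NS siRNA and 11.90 to 12.02 in Nrf2 siRNA.

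The upstream sequences of 4 genes are shown because F2RL2, PLAUR and PLAU had the widest spread of group means among the members when each gene is taken by its brightest probe set, and F3 shares the AP-1 letters with F2RL2 and PLAUR. On 3 dimmer TFPI probe sets the group means spread more widely than those of PLAUR or PLAU, and the TFPI window held none of the letters searched for. RefSeq (GRCh38.p14) gave 9 promoters for 8 of the 9 genes; F2R was not among them. Each window is the 250 bases before a start site, 5′ to 3′ on the gene's strand. Capitals mark every match, on either strand, to TGACTCA (an AP-1 site), to TGACNNNGC (the core of the antioxidant response element, which NRF2 binds with a small MAF partner) or to TGANNNNGC (a relaxed form that contains the core). The windows are chr5:76623404-76623653, minus strand, for F2RL2, chr1:94541760-94542009, minus strand, for F3, chr10:73910360-73910609, plus strand, for the farther upstream of the PLAU starts, and chr19:43670170-43670419, minus strand, for PLAUR.
F2RL2: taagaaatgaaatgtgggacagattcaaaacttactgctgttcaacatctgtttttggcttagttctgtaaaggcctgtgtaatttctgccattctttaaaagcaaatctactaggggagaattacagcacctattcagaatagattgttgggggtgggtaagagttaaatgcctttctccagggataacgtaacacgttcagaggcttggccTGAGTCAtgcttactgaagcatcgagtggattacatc
F3: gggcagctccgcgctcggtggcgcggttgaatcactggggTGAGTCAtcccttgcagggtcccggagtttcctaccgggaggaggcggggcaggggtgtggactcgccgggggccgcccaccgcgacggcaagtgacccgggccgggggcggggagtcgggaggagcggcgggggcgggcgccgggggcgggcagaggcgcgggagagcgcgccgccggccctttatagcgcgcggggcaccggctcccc
PLAU: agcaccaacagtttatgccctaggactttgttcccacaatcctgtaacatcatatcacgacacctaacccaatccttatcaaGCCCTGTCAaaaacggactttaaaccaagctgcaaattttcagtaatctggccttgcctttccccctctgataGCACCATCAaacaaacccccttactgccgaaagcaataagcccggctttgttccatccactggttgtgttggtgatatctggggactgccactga
PLAUR: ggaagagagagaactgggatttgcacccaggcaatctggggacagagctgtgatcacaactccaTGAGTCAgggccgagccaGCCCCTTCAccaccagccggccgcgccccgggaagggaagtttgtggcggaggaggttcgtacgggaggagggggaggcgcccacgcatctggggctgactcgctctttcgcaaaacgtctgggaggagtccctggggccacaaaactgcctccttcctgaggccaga

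An AP-1 match was found in 3 of the 9 windows, those of F2RL2, F3 and PLAUR, against 4.2% of all 35116 promoter windows of that length. In each of the 3 it reads TGAGTCA on the gene's strand. It lies 37 to 31 bases before the start in F2RL2, 210 to 204 bases before it in F3 and 186 to 180 bases before it in PLAUR. The antioxidant response element core was matched in 1 window, the PLAU window printed above (168 to 160 bases before the start), against 10.9% of all windows. The relaxed form was matched in 4 of the 9 windows, those of F2RL1, the same PLAU window, PLAUR and TFPI2, against 35.2% of all. The windows of TFPI, F2RL3 and the nearer PLAU start hold none of these letters. A match is a description of letters and not a bound site, and these counts say nothing about the factors.

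The receptor genes differed in kind. F2RL2 was far lower after Nrf2 siRNA, F2R was lower after either siRNA than in mock on its brighter probe set, and F2RL3 stayed dim in every group. F2RL2 read 10.64, 10.58 and 10.61 in the mock arrays, 10.33, 10.34 and 10.34 in NS siRNA, and 7.48, 7.63 and 7.55 in Nrf2 siRNA on its brighter probe set (230147_at). No group overlapped another, and the 3 Nrf2 siRNA arrays sat close to the array medians. The difference was -2.78 ± 0.05 (SE, n = 3 against 3) from NS siRNA, a 6.88-fold lower level, and -3.06 ± 0.05 from mock, an 8.34-fold lower level. The level left was 14.5% of NS siRNA and 12% of mock. NS siRNA itself was lower than mock by a much smaller step, -0.28 ± 0.05.

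The other F2RL2 probe set (206795_at) had the same order of groups on a dimmer signal. It read 7.78, 7.79 and 7.74 in mock, 7.71, 7.50 and 7.63 in NS siRNA, and 6.19, 6.14 and 6.35 in Nrf2 siRNA. The Nrf2 siRNA arrays again lay below all 6 controls, at -1.39 ± 0.07 from NS siRNA and -1.54 ± 0.07 from mock. Its NS siRNA and mock arrays also did not overlap, but the difference of -0.16 ± 0.07 was not called. Against NS siRNA the dimmer probe set thus gave a 2.62-fold lower level and the brighter one a 6.88-fold lower level. The reason for the gap between the sizes was not tested.

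The 3 genes whose centred values over the 9 arrays came closest to those of F2RL2 were ALDH3A1, an aldehyde dehydrogenase, NMRAL2P, a pseudogene transcript, and HMOX1, the heme-degrading oxygenase. Their root mean square differences from F2RL2 were 0.15, 0.22 and 0.24 (log2). ALDH3A1 stood at -2.67 and -2.85 relative to NS siRNA and mock, NMRAL2P at -2.75 and -2.62, and HMOX1 at -2.61 and -2.53. F2RL2 was the only measured member whose group means spanned 1 log2 unit or more on its brightest probe set, so no other member was matched in this way. In the RefSeq gene table F2RL2 lies on chromosome 5 inside the span of IQGAP2, a scaffold protein gene read from the opposite strand, between SV2C and F2R. IQGAP2 did not share its course. On its brighter probe set it read 9.06, 9.01 and 9.01 in mock, 7.95, 7.88 and 7.85 in NS siRNA, and 9.37, 9.51 and 9.42 in Nrf2 siRNA, which was 1.54 ± 0.05 higher after Nrf2 siRNA than after NS siRNA (limma adjusted p = 2.55e-10). Its other, dimmer probe set differed by 0.00 ± 0.05 (limma adjusted p = 0.999).

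**Figure D1:**
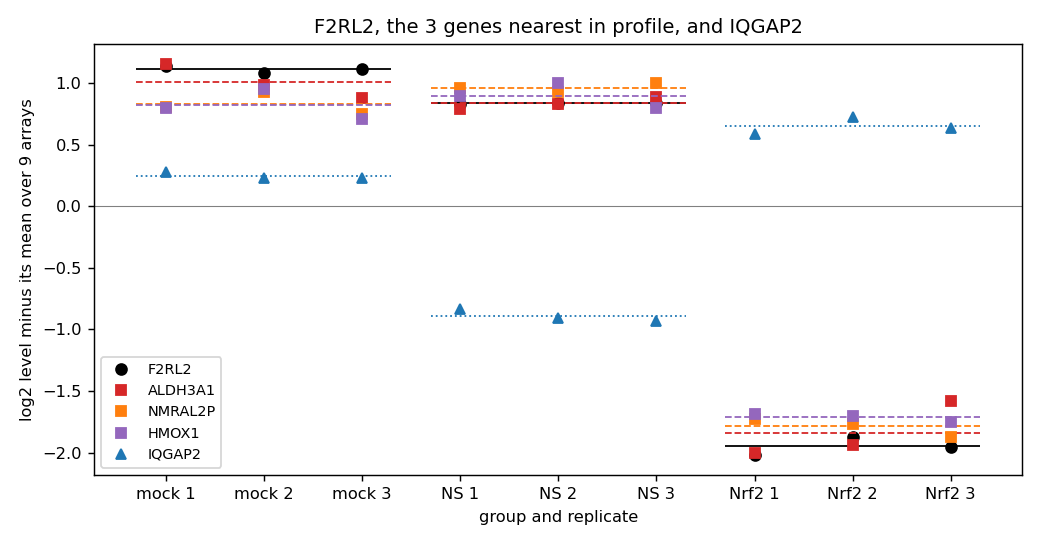
Values of F2RL2 (black), the 3 genes nearest to it in profile (ALDH3A1, NMRAL2P, HMOX1; squares) and IQGAP2 (triangles) on each of the 9 arrays, as the log2 level minus the gene's mean over the arrays; horizontal lines are group means. F2RL2 and the 3 genes are high in all 6 control arrays and low in the 3 Nrf2 siRNA arrays, while IQGAP2 is lowest in NS siRNA.

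F2R gave different pictures on its 2 probe sets. The brighter one (203989_x_at, a suffix that marks probes able to bind other transcripts too) read 11.29, 11.21 and 11.45 in mock, 10.78, 10.68 and 10.77 in NS siRNA, and 10.64, 10.89 and 10.92 in Nrf2 siRNA. All 6 siRNA arrays were below the mock arrays, and the siRNA groups overlapped. Nrf2 siRNA differed from mock by -0.50 ± 0.08 and from NS siRNA by 0.07 ± 0.08, with a 95% interval of -0.10 to 0.25 for the latter. The dimmer probe set (1569642_at) read 9.31, 9.32 and 9.32 in mock, 9.41, 9.41 and 9.42 in NS siRNA, and 9.14, 9.06 and 9.10 in Nrf2 siRNA. There Nrf2 siRNA was lowest, at -0.31 ± 0.04 from NS siRNA and -0.21 ± 0.04 from mock, and NS siRNA was not below mock (0.10 ± 0.04). The probe sets had the same sign against mock, both lower after Nrf2 siRNA. Against NS siRNA their signs differed, and the interval of the brighter one spans 0. The dimmer one was called lower, and so was the mean of both (-0.12), so the direction and the call of F2R in that comparison depend on the probe set.

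F2RL3 read 5.27, 5.12 and 5.06 in mock, 5.15, 5.26 and 5.33 in NS siRNA, and 5.08, 5.12 and 5.11 in Nrf2 siRNA, far below the array medians. The differences were -0.14 ± 0.06 from NS siRNA (95% interval -0.28 to -0.01) and -0.05 ± 0.06 from mock (-0.18 to 0.09), and neither was called. The arrays of Nrf2 siRNA and NS siRNA did not overlap; those of either group and mock did. Without NS siRNA replicate 1 the difference from NS siRNA was -0.19 and was called. No detection calls were used, so whether F2RL3 RNA was present is not settled by these values.

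**Figure D2:**
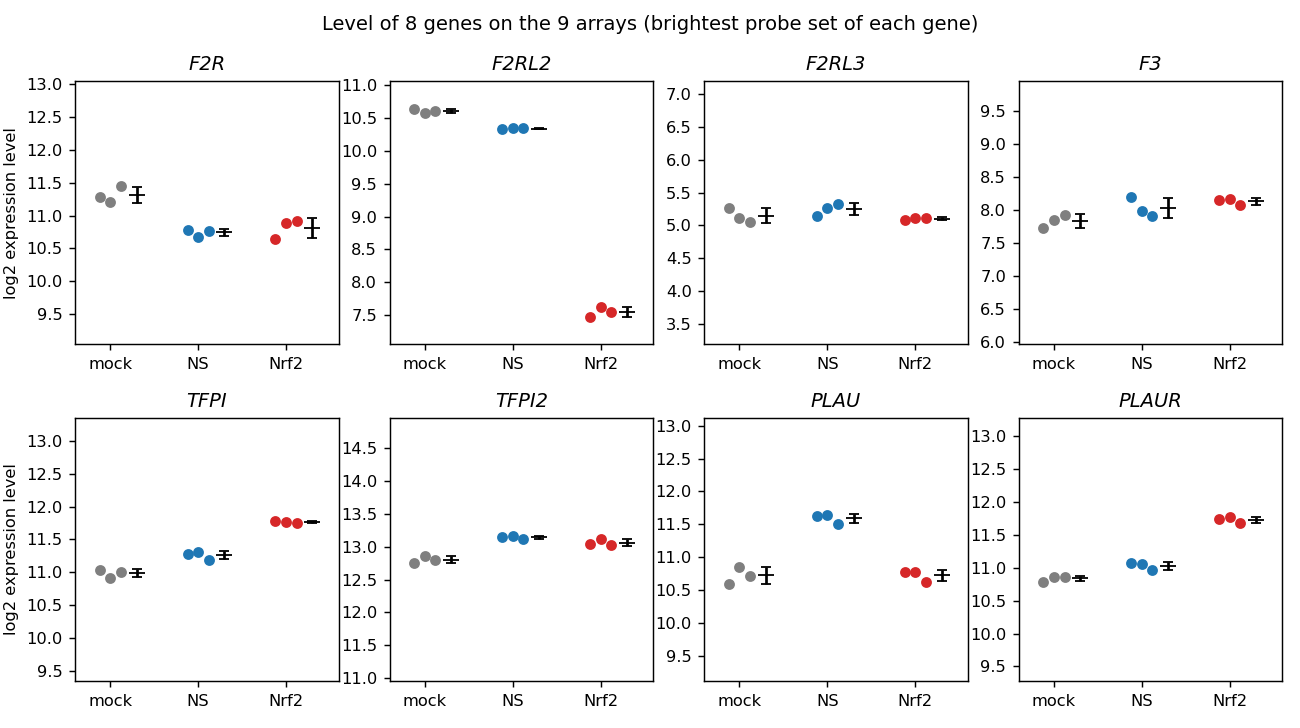
Log2 expression level of the 8 measured genes on each array (brightest probe set; dots are arrays, the bar beside them the mean ± SD, n = 3), by group; every panel spans 4 log2 units, so heights of differences can be compared between panels and absolute levels cannot. F2RL2 drops from above 10 to about 7.55 in Nrf2 siRNA, PLAU is raised in NS siRNA alone, and TFPI and PLAUR are highest in Nrf2 siRNA.

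F3, the tissue factor gene that starts coagulation, showed small differences. It read 7.72, 7.85 and 7.93 in mock, 8.20, 7.98 and 7.91 in NS siRNA, and 8.15, 8.17 and 8.07 in Nrf2 siRNA. The order was mock, NS siRNA, Nrf2 siRNA from low to high, and NS siRNA overlapped both of the others. Nrf2 siRNA was 0.30 ± 0.08 higher than mock, which was called, and 0.10 ± 0.08 higher than NS siRNA, which was not (95% interval -0.07 to 0.26). The call against mock was lost without mock replicate 1 (0.24). NS siRNA was 0.20 ± 0.08 above mock, which was not called, and it was called without NS siRNA replicate 3 (0.26).

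TFPI, whose product blocks the complex of tissue factor and factor VIIa, was highest after Nrf2 siRNA and lowest in mock on 4 of its 5 probe sets. The brightest (213258_at) read 11.04, 10.92 and 11.01 in mock, 11.28, 11.31 and 11.19 in NS siRNA, and 11.78, 11.77 and 11.75 in Nrf2 siRNA. The 3 groups did not overlap. Nrf2 siRNA was 0.50 ± 0.05 above NS siRNA (1.42-fold) and 0.78 ± 0.05 above mock (1.71-fold), and NS siRNA was 0.27 ± 0.05 above mock.

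On other TFPI probe sets NS siRNA stood farther above mock. The probe set 210664_s_at read 9.47, 9.42 and 9.40 in mock, 10.26, 10.25 and 10.16 in NS siRNA, and 10.70, 10.69 and 10.59 in Nrf2 siRNA. Its NS siRNA arrays were 0.80 ± 0.05 above mock and its Nrf2 siRNA arrays a further 0.44 ± 0.05 above NS siRNA. The probe set 209676_at had the same shape: NS siRNA was 0.60 ± 0.05 above mock and Nrf2 siRNA 0.50 ± 0.05 above NS siRNA. On the dimmer 210665_at the steps were 0.23 ± 0.07 and 1.02 ± 0.07. The dimmest, 214378_at, went another way. It read 5.81, 5.91 and 5.79 in mock, 6.28, 6.23 and 6.22 in NS siRNA, and 5.77, 5.82 and 5.91 in Nrf2 siRNA, which placed Nrf2 siRNA 0.41 below NS siRNA (-0.41 ± 0.05) and level with mock (-0.01 ± 0.05). Which TFPI transcripts each probe set reads was not examined.

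TFPI2 encodes a related Kunitz-type inhibitor that blocks plasmin and trypsin. It was lowest in mock and highest in NS siRNA on both probe sets. The brighter (209278_s_at) read 12.75, 12.86 and 12.80 in mock, 13.14, 13.17 and 13.11 in NS siRNA, and 13.04, 13.12 and 13.02 in Nrf2 siRNA. Both siRNA groups lay above mock, by 0.33 ± 0.05 for NS siRNA and 0.26 ± 0.05 for Nrf2 siRNA, and they overlapped each other (-0.08 ± 0.05, 95% interval -0.18 to 0.03, not called). On the other probe set (209277_at) Nrf2 siRNA was lower than NS siRNA (-0.30 ± 0.08, called) and overlapped mock (0.10 ± 0.08, not called).

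PLAU and PLAUR, the urokinase and its receptor, differed from each other in their pattern over the groups. PLAU read 10.60, 10.85 and 10.72 in mock, 11.62, 11.64 and 11.51 in NS siRNA, and 10.77, 10.77 and 10.63 in Nrf2 siRNA (205479_s_at). The NS siRNA arrays stood above all others, and mock and Nrf2 siRNA overlapped. NS siRNA was 0.87 ± 0.07 above mock (1.82-fold). Nrf2 siRNA was therefore 0.87 below NS siRNA (-0.87 ± 0.07) and at 0.00 ± 0.07 from mock (95% interval -0.15 to 0.15). The other PLAU probe set (211668_s_at) gave -0.86 ± 0.06 from NS siRNA, -0.02 ± 0.06 from mock and 0.84 ± 0.06 for NS siRNA from mock. PLAU was thus lower after Nrf2 siRNA relative to NS siRNA and level with mock.

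PLAUR read 10.79, 10.86 and 10.86 in mock, 11.07, 11.06 and 10.96 in NS siRNA, and 11.74, 11.77 and 11.68 in Nrf2 siRNA (210845_s_at). The groups did not overlap. Nrf2 siRNA was 0.70 ± 0.05 above NS siRNA (1.62-fold) and 0.90 ± 0.05 above mock (1.86-fold), against a step of 0.20 ± 0.05 from mock to NS siRNA. The step from mock to NS siRNA was not called without mock replicate 1 (0.17). On 211924_s_at Nrf2 siRNA was 0.71 ± 0.08 above NS siRNA and 0.91 ± 0.08 above mock. The dimmer 214866_at gave 0.49 ± 0.05 and 0.48 ± 0.05, and there the controls differed by -0.01 ± 0.05. All 3 PLAUR probe sets placed every Nrf2 siRNA array above all 6 control arrays.

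**Figure D3:**
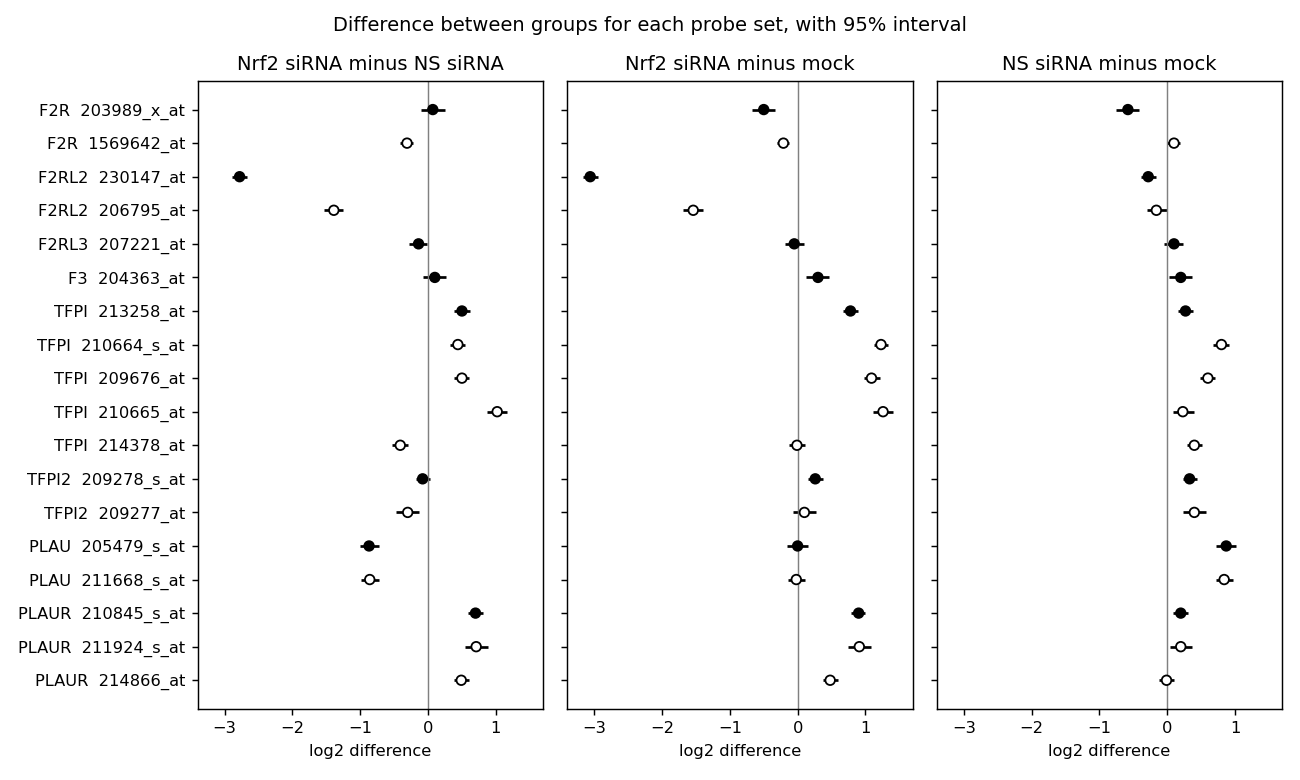
Log2 difference between groups with its 95% interval from the limma fit, for all 18 probe sets (filled circles, the brightest of each gene; open circles, the others), in 3 panels for Nrf2 siRNA minus NS siRNA, Nrf2 siRNA minus mock and NS siRNA minus mock. F2RL2 lies far to the left of the first and second panels, PLAUR and 4 of 5 TFPI probe sets to the right of both, and PLAU to the left of the first, at 0 in the second and to the right of the third.

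By brightest probe set, 4 of the 8 genes were called between Nrf2 siRNA and NS siRNA, with TFPI and PLAUR higher and F2RL2 and PLAU lower. Over all genes 45.1% were called in that comparison. Against mock 6 of 8 were called (31.1% of all genes), with F3, TFPI, TFPI2 and PLAUR higher and F2R and F2RL2 lower. Between NS siRNA and mock 6 of 8 were called too (28.4% of all genes), with TFPI, TFPI2, PLAU and PLAUR higher and F2R and F2RL2 lower. Of the 18 probe sets, 14, 13 and 12 were called in these comparisons, in that order (41.7%, 28.6% and 25.9% of all probe sets), and 15, 13 and 14 had groups that did not overlap (49.7%, 39.2% and 39.7%). These genes were picked with the comparisons known, the comparisons share arrays, and nothing is read from the counts. F2RL2 alone was called at 2-fold or more on the brightest probe set, in both comparisons with Nrf2 siRNA; 2.83% of all genes were past that size against NS siRNA and 1.44% against mock. In 3 of the 8 genes, F2RL2, TFPI and PLAUR, all Nrf2 siRNA arrays lay beyond all 6 control arrays, as they did in 31.8% of all genes. The same 3 were called in the same direction against both controls, as 23.7% of all genes were.

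Genes that work with these members were counted from 6 lists, 96 of 101 of them measured. Against NS siRNA 26 rose and 17 fell (limma, adjusted p below 0.05), beside 20.4% higher and 24.7% lower over all genes. The list median was -0.02 and that of all genes -0.05. Without NS siRNA replicate 3 the number that fell was 10, and without Nrf2 siRNA replicate 2 it was 11. Of the 96, 8 rose by 2-fold or more and 0 fell that far, beside 418 and 141 of all 19775 genes. Against mock 4 were that far higher and 0 that far lower, beside 203 and 82 of all genes. PROS1 was among the 8, at 1.08 against NS siRNA, but it stood at -0.18 against mock, not called. Against mock 23 rose and 10 fell, beside 15.6% and 15.5% of all genes, and between NS siRNA and mock 7 were higher and 14 lower in NS siRNA, beside 14.1% and 14.3%.

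Among 16 coagulation factor genes 6 rose and 2 fell against NS siRNA, beside 20.4% higher and 24.7% lower over all genes. Nothing is read from the counts of single lists. The genes of the fibrinogen chains, which thrombin turns into fibrin, rose together. FGG stood at 1.77 ± 0.09 (SE, log2; limma adjusted p = 9.65e-09), FGB at 1.68 ± 0.07 and FGA at 0.75 ± 0.07, and against mock they stood at 1.37, 1.51 and 0.42. F5, the cofactor of the enzyme that makes thrombin, was at 0.84 ± 0.07 and 0.92 ± 0.07. For FGA and F5, 2 of 3 probe sets were called in that direction. Of 9 natural anticoagulants 2 rose and 2 fell against NS siRNA. THBD, thrombomodulin, which turns thrombin toward protein C, was at 1.10 ± 0.06 and 0.62 ± 0.06 against NS siRNA and mock. The falls were small: PROC, the protein C gene, stood at -0.16 ± 0.05 and the antithrombin gene SERPINC1 at -0.21 ± 0.05 against NS siRNA. Both were dim, with means of 7.41 for PROC and 6.55 for SERPINC1, below the median of all probe sets (7.54). The filter on dim probe sets left both out. PROC did not pass with replicate 2 or 3 of NS siRNA or replicate 1 or 3 of Nrf2 siRNA left out (-0.17 to -0.12). It also did not pass with quantile normalization (-0.14), with an unmoderated linear model (-0.16) or at a threshold of 0.01. Against mock PROC was at -0.30, called, and SERPINC1 at -0.14, not called. Of the SERPINC1 probe sets 1 of 2 was called lower against NS siRNA.

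In the plasminogen system 3 of 12 genes rose and 1 fell against NS siRNA, beside 20.4% higher and 24.7% lower over all genes. The inhibitors of plasminogen activators SERPINE2 and SERPINI1 were at 1.11 ± 0.05 and 1.68 ± 0.07, and at 0.92 and 1.60 against mock. PLAT, tissue plasminogen activator, was at 0.85 ± 0.12 and 0.92 ± 0.12. PLG, plasminogen itself, was at -0.20 ± 0.06 against NS siRNA (limma adjusted p = 0.0120), with 1 of 3 probe sets called. The PLG call was lost with the mean of its probe sets (-0.08) and without NS siRNA replicate 1 (-0.17), and against mock the difference was -0.08, not called. Of 19 measured proteases that can cut the receptors 2 rose and 5 fell against NS siRNA. In either direction 7 of these 19 and 4 of the 12 plasminogen genes were called, beside 45.1% of all genes. MMP1, a collagenase that can cut PAR1, was at 1.30 ± 0.14 from a dim 5.06 in NS siRNA, and PRSS3, a trypsin, at 0.77 ± 0.05. PRSS3 probes may also read other trypsin genes. The epithelial surface proteases HPN and PRSS8 were at -0.24 ± 0.06 and -0.22 ± 0.06. HPN was dim, with a mean of 7.28, below the median of all probe sets (7.54). Against mock HPN was at -0.15, not called, and PRSS8 at -0.21, called. PRSS8 did not pass against NS siRNA with that group's replicate 2 left out, nor with replicate 3 of Nrf2 siRNA left out (-0.18 each). Against mock it did not pass with replicate 3 of mock (-0.16) or of Nrf2 siRNA (-0.17) left out.

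**Figure D4:**
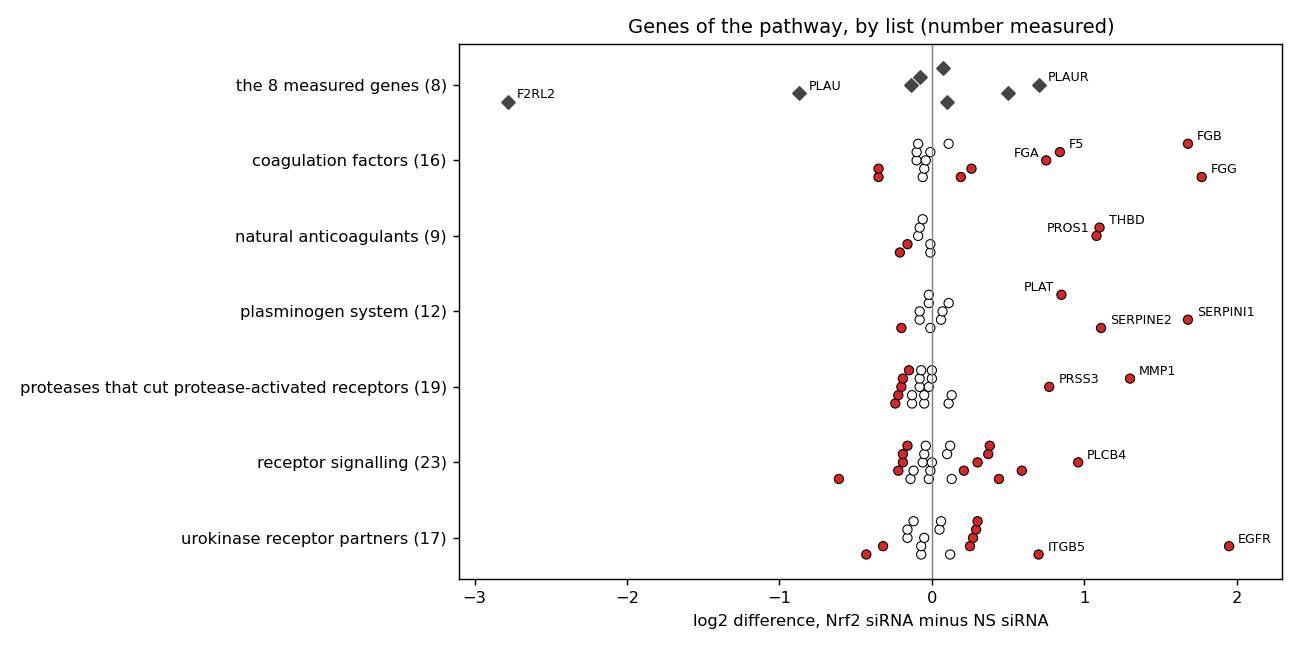
Log2 difference of Nrf2 siRNA minus NS siRNA for the 8 measured genes (diamonds, no test) and for 96 genes of 6 lists of their pathway (circles, 1 per gene by its brightest probe set; filled red where limma's adjusted p was below 0.05), with genes beyond 0.65 named where possible. Past 2-fold, the list genes lie to the right, while F2RL2 is far to the left. Over all genes, 418 were called at 2-fold or more higher and 141 lower.

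Of 23 signalling genes downstream of the receptors 7 rose and 5 fell against NS siRNA, none by 2-fold. Over all genes 20.4% rose and 24.7% fell in that comparison. Against mock 6 of the 23 were higher and 2 lower, beside 15.6% and 15.5% of all genes. Against NS siRNA the phospholipase PLCB4, which G proteins of the Gq class activate, was at 0.96 ± 0.07. The G protein genes GNAI1 and GNAI3 were at 0.59 ± 0.06 and -0.61 ± 0.05. The arrestin ARRB1 was at 0.44 ± 0.06, with 5 of 7 probe sets called that way. Against mock PLCB4 was at 0.65, GNAI1 at 0.93, GNAI3 at -0.64 and ARRB1 at 0.35, all called. Of 17 partners of the urokinase receptor 6 rose and 2 fell against NS siRNA, beside the same shares of all genes. Against mock 3 of the 17 were higher and 2 lower. Between NS siRNA and mock 3 were higher and 5 lower in NS siRNA. MRC2 rose against NS siRNA (0.29) but was called lower against mock (-0.40). CAV1 fell against NS siRNA (-0.32) but stood at 0.03 against mock, not called. EGFR, the epidermal growth factor receptor, was at 1.95 ± 0.05 against NS siRNA and 0.90 ± 0.05 against mock; of its 9 probe sets 5 were called higher and 2 lower. The integrin genes ITGB5 and ITGA3 were at 0.70 ± 0.05 and 0.30 ± 0.07, and ITGAV at -0.43 ± 0.05 (limma adjusted p = 2.73e-05). Against mock ITGB5 was at 0.45 and ITGAV at -0.19, both called, while ITGA3 was at 0.07, not called, and NS siRNA was 0.24 below mock for ITGA3 (-0.24). The ITGAV call against mock was lost without mock replicate 2 (-0.18), mock replicate 3 (-0.15) or Nrf2 siRNA replicate 1 (-0.16).

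Genes next to the members on their chromosomes were also looked up. Of 15 measured neighbours that are not members, 5 rose and 1 fell against NS siRNA, beside 20.4% higher and 24.7% lower over all genes. Besides IQGAP2, GULP1 beside TFPI was at 0.73, VCL beside PLAU at 0.80 and SLC44A3 beside F3 at 0.69. Against mock SLC44A3 was at 0.56 and GULP1 at 0.21, both called, and VCL at 0.09, not called. VCL stood at -0.70 in NS siRNA relative to mock, where PLAU stood at 0.87. ABCD3, also beside F3, was at -0.18, and CADM4 beside PLAUR at 0.19; neither was called against mock.

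Several members are also made by fibroblasts, blood cells or endothelium, and markers of such cells were counted. Over all genes 20.4% rose and 24.7% fell against NS siRNA. Of 6 fibroblast markers 3 rose against NS siRNA, with LUM at 3.01 ± 0.09, COL1A1 at 1.12 ± 0.09 and THY1 at 0.34 ± 0.06; their mean level ran from 8.08 to 8.27 in mock, 7.90 to 7.92 in NS siRNA and 8.61 to 8.66 in Nrf2 siRNA. Against mock LUM was at 2.31 and THY1 at 0.22, both called, the latter not without mock replicate 1 (0.19) or Nrf2 siRNA replicate 3 (0.18). COL1A1 was at 0.18 against mock, not called, and stood at -0.94 in NS siRNA relative to mock. Of the LUM probe sets 1 of 2, and of the COL1A1 probe sets 3 of 5, were called higher against NS siRNA. COL1A2 was at 0.00 and DCN at -0.06 against NS siRNA. Of 4 measured monocyte markers CD14 was at 0.96 ± 0.07 and ITGAM at -0.28 ± 0.07, with CD14 at 0.99, called, and ITGAM at -0.10, not called, against mock, and the mean level ran from 7.30 to 7.37, 7.37 to 7.47 and 7.47 to 7.66 in the same order. Of 5 platelet markers GP9 was called, at -0.17 ± 0.05 (means of 7.63 to 7.69, 7.72 to 7.80 and 7.65 to 7.71). GP9 did not pass with replicate 2 of NS siRNA (-0.15) or of Nrf2 siRNA (-0.12) left out, and against mock GP9 was at -0.01, not called. Of 5 endothelial markers 0 were called against NS siRNA by limma, with 1 at an unadjusted p below 0.05 (7.31 to 7.40, 7.37 to 7.44 and 7.28 to 7.45). Of the 7 epithelial markers 4 rose and 1 fell, with KRT19 at 1.15, EPCAM and CDH1 at 0.48 each and MUC1 at 0.42. For KRT19 1 of 2 probe sets was called. KRT7 fell (-0.17, and -0.21 against mock, both called), and KRT8 (0.06) and KRT18 (0.05) were not called against NS siRNA. NS siRNA was itself called above mock for KRT19 (0.80), EPCAM (0.72) and CDH1 (0.46), and was not called for MUC1 (0.03). The part of these markers in the levels of TFPI, PLAUR and the other members was not tested.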

How the data were processed

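The 9 arrays are Affymetrix oligonucleotide arrays, 1 per sample. RMA is the tool that the submitters' processing notes name for the deposited log2 values; no version of it is given in those notes. RMA includes normalization between arrays, and no further scaling was applied. Of 54675 probe sets, 62 controls, 1801 with several genes and 11721 unnamed ones were left out. Symbols of the other 41091 were updated by Entrez identifier with the GRCh38.p14 gene table (41037 matched). A gene was represented by its brightest probe set over the 9 arrays where genes were counted.

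One linear model with 3 group means (6 residual degrees of freedom, 6.2 added by the prior) was fitted to all 41091 probe sets with limma 3.58.1 in R 4.3.3, and two-sided p-values were adjusted by Benjamini-Hochberg over all of them. On simulated arrays of 41091 probe sets, 67, 67 and 66 were changed in Nrf2 siRNA by 2-fold, 1.41-fold and 1.19-fold. Against NS siRNA the fit recovered 100%, 92.5% and 22.7% of them. Far fewer probe sets were changed there than the 41.7% called in the data. The adjustment is stricter with few changes, so these rates do not give the recovery in the data. Precision is limited by the 3 arrays per group; the median SD between replicates was 0.0732 (log2). The members and gene lists were chosen with earlier results of these data known. Besides the members and NFE2L2, up to 4 genes per list were named. These had the largest difference against NS siRNA among those past the threshold with the same sign against mock. Also named were the 3 nearest in profile to a member whose group means span 1 log2 unit, and genes next to the members. CAV1, COL1A2, DCN, KRT7, KRT8, KRT18, MRC2 and PROS1 were picked with their values in view. Alternatives covered other scalings, a filter on dim probe sets, other choices of a gene's probe set, other variance models, 2-group fits, the replicate number as a block, each array left out, and a threshold of 0.01. Promoter sequences are from RefSeq. Plots used matplotlib 3.10.9 (Python 3.11.15).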

Additional observations from a re-analysis of the deposited data

How the results depend on the processing

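The counts of called members and of called list genes, 9 in all, kept within 1.5 times their value except as follows. At adjusted p below 0.01 the list genes that fell were 7 against NS siRNA and 6 against mock, and those higher in NS siRNA than in mock were 4. With each array left out in turn, the list genes that fell against NS siRNA ranged from 10 to 17. F2R against NS siRNA changed sign to -0.12 with the mean of its probe sets and was called lower. With that choice TFPI2 was called lower too (-0.19), so 6 members were called against NS siRNA, and PLAUR was not called between the controls (0.13). Replicate numbers were not treated as pairs in the main fit, and whether they pair the samples is not settled. Deviations of same-numbered arrays correlated at -0.19 to 0.19, 5 of 9 pairs above 0.1, and those of other pairs at -0.31 to 0.16. Of the 9 arrays, 7 correlated best with an array of their own number. With the replicate number as a block 4 members were called against NS siRNA, 6 against mock and 6 between the controls; list genes numbered 27 higher and 18 lower against NS siRNA, 24 and 11 against mock, and 7 and 15 between the controls. Equal array medians and quantile normalization moved the median of all probe sets by less than 0.1. Without detection calls, dim probe sets have no background test. Of the member probe sets, 4 had a mean below the median of all probe sets. These were the F2RL3 probe set, 206795_at of F2RL2, and 210665_at and 214378_at of TFPI. Scan batches were not analysed here.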
